A study of Homo sapiens with 6 samples.

Results

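RAB genes encode the largest family of small GTPases, the switches that give each membrane compartment of a cell its identity. The family was taken from the array annotation as every gene whose probe sets carry exactly 1 symbol made of RAB, digits and at most 1 final letter, and 57 of the 18132 genes with a probe set of their own met that rule. Gene expression was compared between a TE-1 clone in which EIF3C was stably knocked down (3 arrays) and the parental TE-1 cells as control (3 arrays). TE-1 is an established line of human squamous carcinoma cells from the oesophagus, kept in the same serum-containing medium in both groups, and EIF3C encodes a subunit of the translation initiation complex eIF3. The knockdown arrays share 1 clone, the labels name no cells with a control construct, and nothing tells if replicates were grown as separate cultures, so the spread behind the p-values may be technical. All values are the deposited log2 signals, and a change is the knockdown mean minus the control mean on that scale.

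Array medians lay between 6.09 and 6.11. On the 3 bright probe sets shared by EIF3C and its near-identical copy EIF3CL, the signal left in knockdown was 21.5% to 22.6% of control. The epithelial genes EPCAM, CDH1, KRT8 and KRT18 averaged 11.44 to 13.64 in knockdown and 11.21 to 13.52 in control, and each rose, by 0.12 to 0.26. SFN did not pass, with a change of 0.046, DSG3, a desmosomal cadherin of squamous epithelium, fell by 0.70, with 7.45 in knockdown and 8.14 in control, and the squamous keratins KRT5 and KRT14 were dim, at 6.09 and 5.67 in knockdown against 5.91 and 5.85 in control. Of the 5 fibroblast, 5 leukocyte and 4 endothelial markers, none averaged above 6.34 in knockdown or 6.21 in control. Among the melanocyte markers PMEL, TYR and MLANA the highest was PMEL, at 7.19 in knockdown and 8.18 in control.

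A RAB protein is inactive when bound to GDP and active when bound to GTP. Exchange factors load GTP, GTPase-activating proteins with a TBC domain speed its hydrolysis, and GDI proteins extract the GDP-bound form from membranes and carry it in the cytosol. Prenyl groups added by RAB geranylgeranyl transferase, with the escort proteins CHM and CHML, anchor the protein. In the active form a RAB binds effectors such as tethers, motor adaptors and kinases. In epithelial cells RAB11A, RAB11B and RAB25 serve recycling of receptors and integrins to the surface, RAB5 proteins serve early endosomes, and RAB7A serves late endosomes and lysosomes.

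RAB5A rose most and RAB14 fell most among RAB genes. Of the 57 genes, 48 were bright enough to test, and 38 of them passed an adjusted p of 0.05, 19 higher and 19 lower in knockdown (limma, Benjamini-Hochberg over 13599 genes). Across all 13599 genes tested, 66.5% passed, 32.4% higher and 34.1% lower, so most genes on this array passed. A change of at least 1.5-fold was found for 13 RAB genes, 5 higher and 8 lower, which is 27.1% of those tested, against 16.5% of all genes (8.84% higher and 7.71% lower). At least 2-fold changes were found for 4, or 8.33%, against 4.82% of all genes. With the mean of each gene's probe sets in place of the brightest, 9 RAB genes changed at least 1.5-fold. The share of all genes under that mean is not given here. The median change of the family was -0.0096, close to the -0.035 of all genes, and the median size of change was 0.35, against 0.23. The tested RAB genes were also brighter, with a median signal of 8.55 against 7.61 for all genes tested, and the part of brightness in the count was not tested. Groups did not overlap for 39 of the 48, against 70.3% of all genes.

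**Figure D1:**
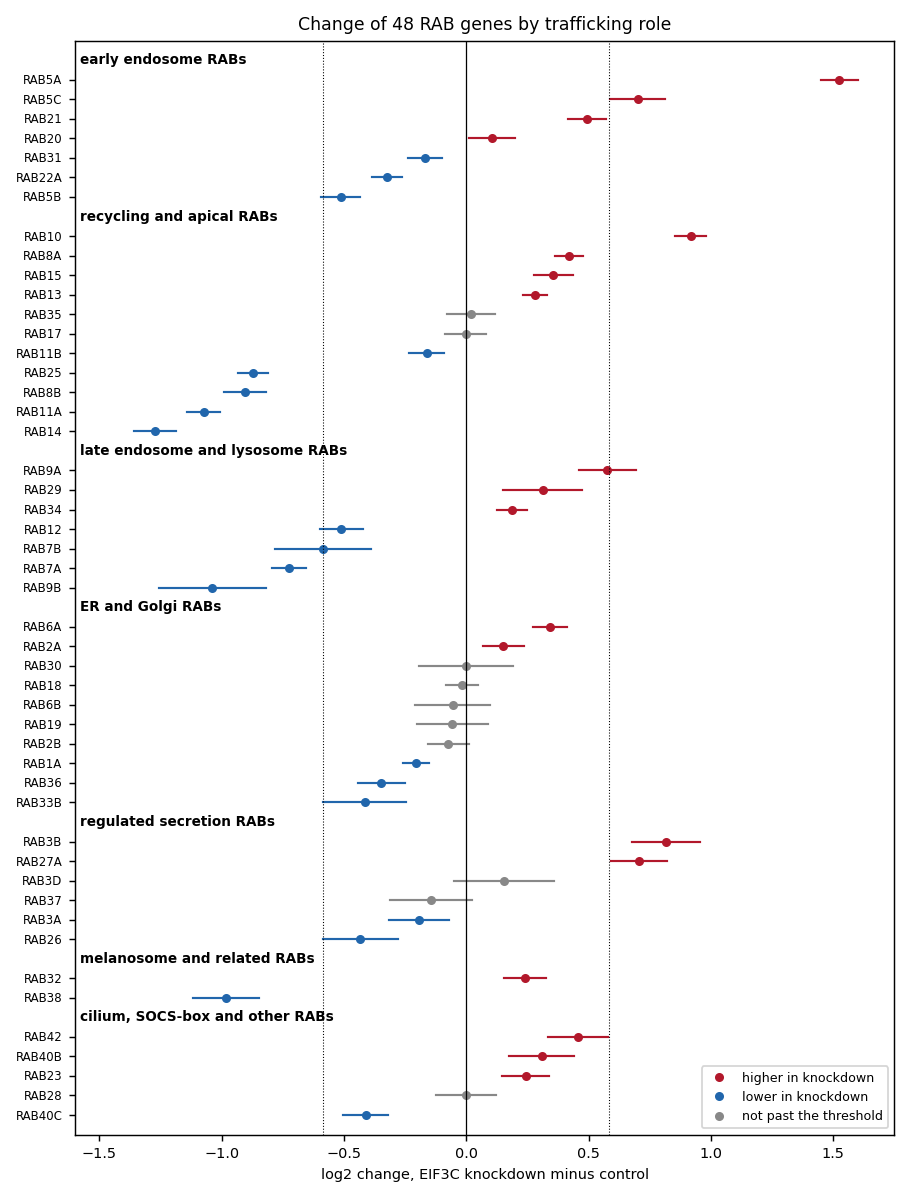
Change in log2 signal of the 48 tested RAB genes (points), knockdown minus control, with limma's 95% confidence interval (bars), grouped by trafficking role; dotted lines mark 1.5-fold. RAB5A at 1.53 is farthest to the right and RAB14 at -1.27 farthest to the left, and most role groups hold genes on both sides of 0.

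**Figure D2:**
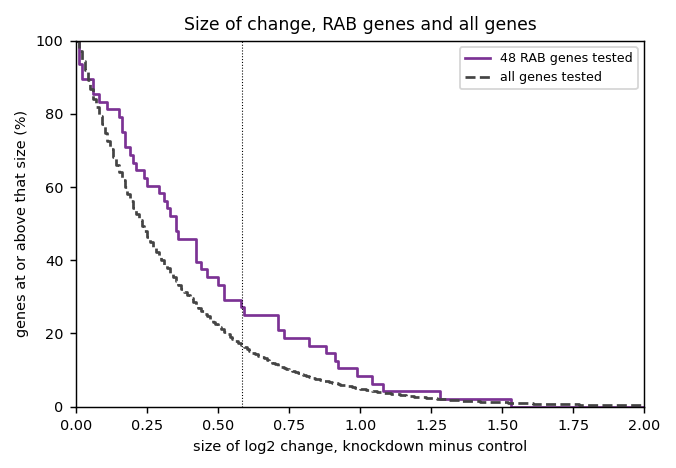
Percentage of genes (y axis) whose log2 change is at least as large in size as the value on the x axis, for the 48 tested RAB genes (solid) and all 13599 tested genes (dashed); the dotted line marks 1.5-fold. The RAB curve lies above the other at a size of 0.5, with 33.3% against 21.8% of genes.

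The 250 bases before the RefSeq transcription start are shown for the largest rise and for 3 of the falls, those of RAB14 and of the recycling genes RAB11A and RAB25, because RAB5A and RAB14 mark the ends of the range and RAB11A and RAB25 are the RAB11 subfamily members that fell at least 1.5-fold. The bases are from GRCh38.p14, and capitals mark the E-box CACGTG, the cAMP response element TGACGTCA and the GC box GGGCGG, on either strand, none of which overlap. RAB5A lies on the + strand at chr3:19946847-19947096, RAB14 on the - strand at chr9:121201870-121202119, RAB11A on the + strand at chr15:65869241-65869490 and RAB25 on the + strand at chr1:156060910-156061159.
RAB5A: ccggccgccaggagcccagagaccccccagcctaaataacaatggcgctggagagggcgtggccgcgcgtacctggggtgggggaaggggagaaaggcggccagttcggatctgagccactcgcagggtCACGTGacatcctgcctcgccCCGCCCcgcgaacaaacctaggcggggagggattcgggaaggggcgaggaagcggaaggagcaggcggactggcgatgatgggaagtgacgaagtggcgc
RAB14: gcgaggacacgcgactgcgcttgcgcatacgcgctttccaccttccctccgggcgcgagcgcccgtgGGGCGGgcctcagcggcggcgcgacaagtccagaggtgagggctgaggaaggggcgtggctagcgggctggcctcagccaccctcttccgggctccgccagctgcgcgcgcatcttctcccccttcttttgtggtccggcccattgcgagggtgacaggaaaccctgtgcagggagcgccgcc
RAB11A: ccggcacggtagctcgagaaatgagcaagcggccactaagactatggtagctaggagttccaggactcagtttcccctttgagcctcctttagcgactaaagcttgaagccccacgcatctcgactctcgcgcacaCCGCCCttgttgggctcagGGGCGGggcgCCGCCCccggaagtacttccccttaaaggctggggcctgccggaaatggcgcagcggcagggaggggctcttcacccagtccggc
RAB25: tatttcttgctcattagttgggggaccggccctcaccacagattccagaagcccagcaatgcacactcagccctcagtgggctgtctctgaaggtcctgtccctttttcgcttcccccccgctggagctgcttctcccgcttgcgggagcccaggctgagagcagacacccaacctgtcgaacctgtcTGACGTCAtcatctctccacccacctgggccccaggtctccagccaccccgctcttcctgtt
Such windows were found for 45 of the 57 genes, and where a gene has several the first listed was used. The cAMP response element was in the RAB25 window alone among the 45, and in 1.77% of 27305 windows of all genes. GC boxes were in 13 of 16 windows of RAB genes that rose and 11 of 13 of those that fell, and likewise in 7 of 9 of those that did not pass, against 42.3% of all windows. The E-box, bound by MYC and TFE factors, was in 2 and 1 of these windows, and in 6.49% of all. The AP-1 site TGACTCA was in 1 and 1, against 4.16%, the CCAAT box was in 4 and 4, against 33.0%, and the TATA box TATAAA was in 0 and 1, against 11.1%. The RAB windows were also richer in G and C, with a median of 64.8% against 58.0% of all windows. The part of this in the GC box share was not tested. The 27305 windows include genes that were not tested on the array. A match describes the letters only and is not evidence of binding.

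The early endosome genes split within the RAB5 trio. RAB5A and RAB5C rose and RAB5B fell, although all 3 products act in early endosome fusion. RAB5A had log2 signals of 10.36, 10.33 and 10.44 in knockdown, against 8.87, 8.80 and 8.88 in control. The arrays of the groups are far apart, and the 2.88-fold difference (log2 change 1.53, SE 0.04, adjusted p = 1.59e-15) is seen on 4 of 4 probe sets, from 1.29 to 1.53. RAB5C had 9.04, 9.06 and 8.85 in knockdown and 8.30, 8.33 and 8.22 in control, with no overlap, and rose 1.62-fold (log2 change 0.70, SE 0.05, adjusted p = 3.17e-09), again on 3 of 3 probe sets. RAB5B had 8.34, 8.30 and 8.36 in knockdown and 8.85, 8.83 and 8.86 in control. It was thus lower in every knockdown array, at 70.0% of control (log2 change -0.51, SE 0.04, adjusted p = 2.35e-09), and lower on 3 of 3 probe sets.

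The other early endosome genes changed less. RAB21, which binds integrins during endocytosis, rose by 0.49 on the log2 scale, with knockdown arrays at 9.36 to 9.39 and control arrays at 8.82 to 8.92 (adjusted p = 2.26e-09). RAB22A, a regulator of early endosome sorting, fell by 0.32, and its further probe set fell by 0.54. RAB31, close in sequence to RAB22A, fell by 0.17. RAB20 rose by 0.10 at an adjusted p of 0.0499, its groups overlap, and the call was lost under 10 of the 16 alternatives run. RAB4A, of fast recycling, was too dim to test, at 3.37 to 3.47 in knockdown and 3.29 to 3.45 in control. Its relative RAB4B shares its probe set with the read-through gene MIA-RAB4B and is not counted in the family. That probe set fell by 1.17, with arrays at 6.91 to 6.93 in knockdown and 8.02 to 8.15 in control.

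Among genes of recycling and apical transport, RAB14, RAB11A, RAB8B and RAB25 fell and RAB10 rose, each at least 1.5-fold. Of the 11 genes in this group, all tested, 4 rose, 5 fell and 2 did not pass. Over all genes tested, 66.5% passed, 32.4% higher and 34.1% lower. RAB14, which links the Golgi and recycling endosomes, had 8.54, 8.51 and 8.48 in knockdown, against 9.83, 9.83 and 9.69 in control. Its knockdown level was 41.4% of control (log2 change -1.27, SE 0.04, adjusted p = 6.22e-14), and 4 of 4 probe sets fell, by 0.86 to 1.27. RAB11A, the main RAB of the recycling endosome, had 9.32, 9.36 and 9.32 in knockdown and 10.36, 10.46 and 10.41 in control. This left 47.5% of control (log2 change -1.07, SE 0.03, adjusted p = 2.97e-14), and the changes of its 4 probe sets lay between -1.24 and -1.07. RAB25, the epithelial member of the RAB11 subfamily, had 9.77, 9.86 and 9.83 in knockdown and 10.68, 10.70 and 10.69 in control, or 54.6% of control (log2 change -0.87, SE 0.03, adjusted p = 8.62e-14). It has 1 probe set, so no second measurement was at hand.

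RAB11B, the third member, changed little. Its signals were 9.64, 9.60 and 9.57 in knockdown and 9.82, 9.76 and 9.72 in control, without overlap (log2 change -0.16, SE 0.03, adjusted p = 0.000402). That change is below 0.22, the largest difference among non-human control probe sets of the array, and 2 of its 7 probe sets passed. RAB8A and RAB8B, both of exocytic transport and ciliary membrane delivery, went opposite ways. RAB8B had 8.16, 8.20 and 8.09 in knockdown and 9.09, 9.06 and 9.02 in control (log2 change -0.90, SE 0.04, adjusted p = 4.39e-12). A second probe set of RAB8B fell by 0.80, but its remaining pair stood at -0.03 and 0.20 and did not pass. RAB8A rose by 0.42, with 10.40 to 10.46 in knockdown and 10.00 to 10.01 in control (adjusted p = 4.05e-10).

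RAB10, of basolateral sorting and GLUT4 delivery, had 10.25, 10.26 and 10.24 in knockdown, against 9.30, 9.36 and 9.35 in control (log2 change 0.92, SE 0.03, adjusted p = 7.44e-14). Its other probe set stood at 0.02 and did not pass, so the rise rests on 1 of 2 probe sets. With the mean of both, the change was 0.47. RAB13, of tight junction transport, rose by 0.28, with 3 of 3 probe sets higher. RAB15, of endocytic recycling, rose by 0.35. RAB17, an epithelial RAB of apical recycling, had a change of -0.0025 (95% confidence interval -0.09 to 0.08) and RAB35, of fast recycling, one of 0.02 (-0.08 to 0.12), and neither passed.

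**Figure D3:**
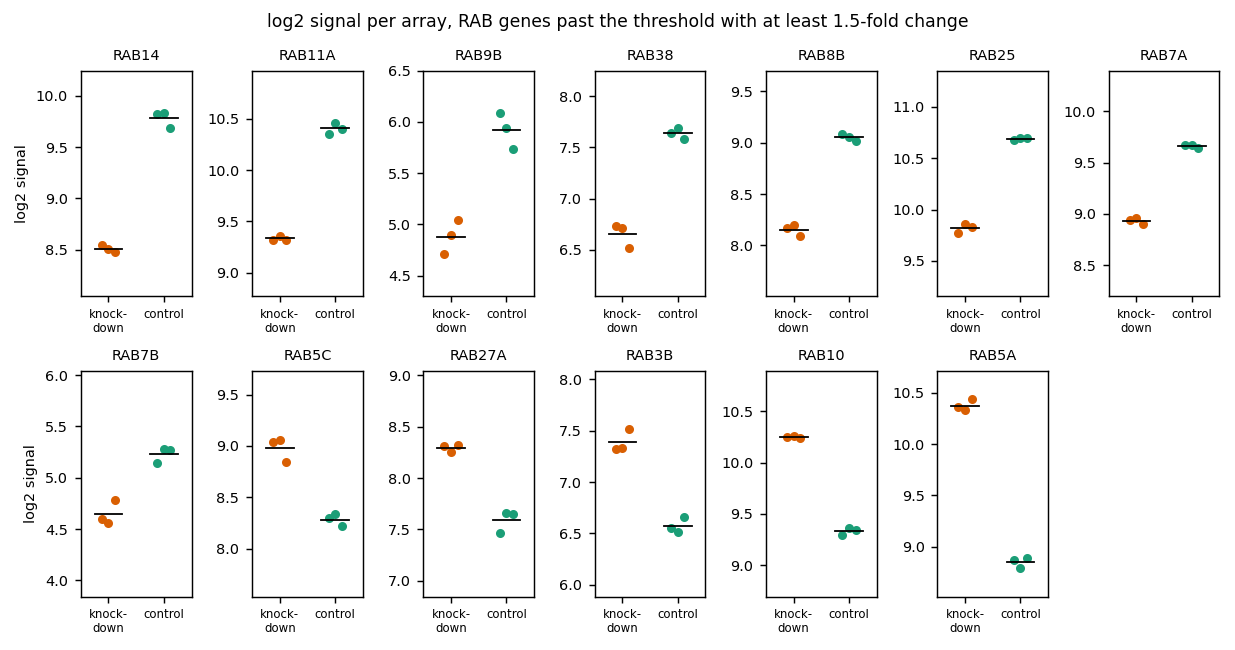
log2 signal on each array (points) with group means (lines) for the 13 RAB genes past the threshold with at least 1.5-fold change, knockdown on the left and control on the right of each panel, ordered from the largest fall to the largest rise. Every panel spans the same range of log2 units. The groups overlap in none, which the choice of genes by threshold and size makes likely beforehand. Of all genes tested, 70.3% had groups that did not overlap. RAB5A in knockdown reaches 10.44, against at most 8.88 in control.

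Late endosome and lysosome genes passed in all 7 tested cases, 3 higher and 4 lower. Across all genes 66.5% passed, 32.4% higher and 34.1% lower. The 7 tested early endosome genes, 4 higher and 3 lower, and the 2 melanosome genes also all passed. RAB7A, needed for fusion with lysosomes, had 8.94, 8.96 and 8.90 in knockdown and 9.67, 9.67 and 9.64 in control. On this probe set it fell to 60.4% of control (log2 change -0.73, SE 0.03, adjusted p = 4.03e-12). Its other probe sets also fell, but by only 0.13 and 0.15, and with the mean of all 3 the change was -0.33. RAB7B, of transport from endosomes to the Golgi, was dim, with 4.60, 4.56 and 4.78 in knockdown and 5.15, 5.28 and 5.27 in control (log2 change -0.59, SE 0.09, adjusted p = 2.58e-05), and fell on 2 of 2 probe sets.

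RAB9A and RAB9B, of retrograde transport from late endosomes, went opposite ways. RAB9B had 4.71, 4.89 and 5.04 in knockdown and 6.08, 5.94 and 5.74 in control (log2 change -1.04, SE 0.10, adjusted p = 1.06e-07). Its 3 probe sets all fell, by 0.31 to 1.04, but they were dim, so the size is uncertain. RAB9A rose by 0.58, just under 1.5-fold, with 7.52 to 7.65 in knockdown and 6.95 to 7.04 in control (adjusted p = 6.89e-08). RAB12, of transferrin receptor degradation, fell by 0.51 on 1 of 3 probe sets and the others stood at 0.08 and 0.09. With the mean of all 3 probe sets, the change of RAB12 was -0.12. RAB29, a partner of the kinase LRRK2, rose by 0.31. RAB34, of lysosome positioning and cilium formation, rose by 0.19, within the range of the non-human array controls.

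Genes of the ER and Golgi had the smallest median size of change among the 7 role groups, 0.11 on the log2 scale. The median size over all genes tested was 0.23. Of 10 tested, 2 rose, 3 fell and 5 did not pass, and the changes lay between -0.42 and 0.34. Over all genes tested, 66.5% passed, 32.4% higher and 34.1% lower. RAB1A, needed for transport from the ER to the Golgi, fell by 0.21 and had 10.69 to 10.72 in knockdown against 10.88 to 10.94 in control (adjusted p = 1.52e-06). The 3 probe sets shared by RAB1A and RAB1B were also lower, by 0.25 to 0.31. RAB6A, of Golgi transport, rose by 0.34, and of its 8 probe sets 5 were higher and 0 lower. RAB36 fell by 0.35 on 2 of 3 probe sets. RAB33B, an autophagy-linked Golgi RAB, fell by 0.42, but its other probe set stood at 0.19 and did not pass.

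RAB2A and RAB18 had no settled direction. RAB2A, of transport between the ER and the Golgi, rose by 0.15 on its brightest probe set (adjusted p = 0.00262), while the other 3 probe sets fell, by 0.31 to 0.53. RAB18, of lipid droplets and the ER, did not pass on its brightest probe set, with a change of -0.017. Of its 10 probe sets, 5 rose by 0.41 to 0.52 and 1 fell by 0.43. RAB2B, RAB6B, RAB19 and RAB30 did not pass, with changes between -0.07 and -0.0014, although the remaining pair of RAB6B probe sets fell by 0.18 and 0.50 and the other RAB30 probe set by 0.27.

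Among genes of regulated secretion, RAB3B and RAB27A rose. RAB3B, of secretory vesicles, had 7.33, 7.33 and 7.51 in knockdown and 6.56, 6.51 and 6.66 in control (log2 change 0.82, SE 0.07, adjusted p = 7.73e-09), and its second probe set rose by 1.34. RAB27A, which docks exosome-releasing and lysosome-related compartments, had 8.31, 8.26 and 8.32 in knockdown against 7.47, 7.66 and 7.65 in control (log2 change 0.71, SE 0.05, adjusted p = 3.94e-09). Of its 5 other probe sets, 4 did not pass and 1 fell by 0.18, and with the mean of all 6 the call was lost (log2 change 0.09, adjusted p = 0.0989). RAB27B, its close relative, lay below the brightness needed for testing, with 4.31, 4.27 and 4.26 in knockdown and 4.05, 4.20 and 4.23 in control. RAB26 fell by 0.43 and RAB3A, of synaptic vesicles, by 0.19 with 1 of its 3 probe sets lower. RAB3D and RAB37 did not pass, although 1 of the 5 RAB37 probe sets fell by 0.22.

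RAB38 and RAB32, known from transport of melanosome enzymes in pigment cells, went opposite ways. RAB38 had 6.74, 6.71 and 6.52 in knockdown, against 7.64, 7.69 and 7.58 in control. It fell to 50.6% of control on this probe set (log2 change -0.98, SE 0.06, adjusted p = 4.95e-10), and fell on 3 of 3. RAB32 rose by 0.24, with 8.51 to 8.56 in knockdown and 8.26 to 8.33 in control. PMEL, a melanosome matrix gene, fell by 0.99 in the same comparison and TYR, which encodes tyrosinase, by 0.50, while MLANA was too dim to test, and their part in the RAB38 result was not tested.

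The remaining 5 tested genes changed by less than 1.5-fold. RAB23, a negative regulator of hedgehog signalling, rose by 0.24 on its brightest probe set, and 4 of 4 probe sets rose. RAB40C and RAB40B, whose products carry a SOCS box and act with ubiquitin ligases, went opposite ways, with a fall of 0.41 on 3 of 3 probe sets for RAB40C and a rise of 0.31 for RAB40B. RAB42 rose by 0.46, with 7.08 to 7.18 in knockdown and 6.66 to 6.70 in control. RAB28, linked to photoreceptor cilia, had a change of -0.0025 (95% confidence interval -0.12 to 0.12).

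The 9 RAB genes that were too dim to test were RAB4A, RAB6D, RAB27B, RAB33A, RAB39A, RAB39B, RAB3C, RAB40A and RAB41. Their signals ran from 2.64 to 4.31 in knockdown and from 2.75 to 4.25 in control, below the lowest mean kept, 4.635. No detection calls were used, so none of them can be called absent.

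Paralogues that passed in opposite directions must have 95% intervals on opposite sides of 0, since both come from the same fit. The intervals are given here for their size only. For RAB5A the 95% interval was 1.45 to 1.60 and for RAB5B -0.59 to -0.43, a difference of 2.04 between the changes. For RAB8A it was 0.36 to 0.48 and for RAB8B -0.99 to -0.82, a difference of 1.32. For RAB9A it was 0.46 to 0.69 and for RAB9B -1.26 to -0.82, a difference of 1.62. The intervals of RAB11A and RAB11B, which both fell, did not overlap, at -1.14 to -1.01 and -0.23 to -0.09. The differences between paralogues were not tested themselves. RAB8A and RAB9A have 1 probe set each, and 2 of the 4 RAB8B probe sets passed as lower, so these differences rest on the brightest probe sets.

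**Figure D4:**
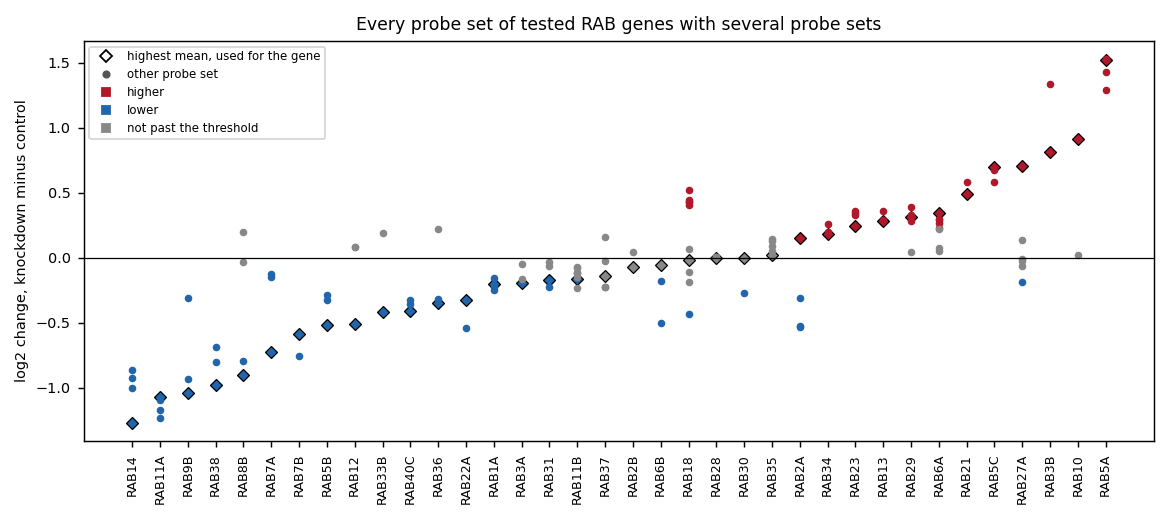
log2 change, knockdown minus control, of every probe set of the tested RAB genes with several probe sets; diamonds mark the probe set with the highest mean, used for the gene, and colours give the call in a fit over all human probe sets. RAB14, RAB11A and RAB5A have all probe sets on 1 side, whereas RAB2A, RAB18 and RAB27A have them on both.

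The 57 genes are covered by 161 probe sets. Of the 38 genes that passed, 29 have several probe sets. In 17 of these every probe set passed the same way, in 10 some did not pass and none passed the opposite way, and in 2, RAB2A and RAB27A, another probe set passed the opposite way. Among genes that passed, 7 changed by no more than 0.22, the same control limit, namely RAB1A, RAB2A, RAB3A, RAB11B, RAB20, RAB31 and RAB34. The array also carries control probe sets for human transcripts, which the cells express themselves, and over all 102 controls the largest difference was 0.46, a size that 21 of the 38 genes that passed did not exceed.

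Among regulators, genes for GTPase-activating TBC proteins were mostly lower. Of 33 tested, 19 fell and 4 rose, or 57.6% and 12.1%, against 34.1% and 32.4% of all genes, with a median change of -0.20. TBC1D13, which acts on RAB35, averaged 6.96 ± 0.07 in knockdown and 8.52 ± 0.01 in control (SD, n = 3 each), a log2 change of -1.57 (adjusted p = 5.48e-14) seen on 3 of 3 probe sets. EVI5, reported to act on RAB11, averaged 6.69 ± 0.10 in knockdown and 7.70 ± 0.09 in control, a change of -1.01. TBC1D9 fell by 0.94 and TBC1D20, which acts on RAB1 and RAB18, by 0.57 with 2 of its 3 probe sets lower. The gene with the largest rise was RABGAP1L, at 0.36, with 1 of its 3 probe sets higher. Among the 33, 10 did not pass.

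Of 42 exchange factor genes tested, 16 were higher and 16 lower, or 38.1% each, against 32.4% and 34.1% of all genes, with a median change of 0.047. RIN2, an exchange factor of RAB5, averaged 8.02 ± 0.03 in knockdown and 7.04 ± 0.11 in control, a change of 0.99 on 2 of 2 probe sets (SD, n = 3 each). DENND4A, an exchange factor of RAB10, rose by 0.79 with 2 of 4 probe sets higher, and DENND5B by 0.76 with 2 of 3. DENND1B, which acts on RAB35, fell by 0.79, with 2 of 3 probe sets lower. Genes of prenylation, escort and GDI changed little, with 5 of 9 higher, 2 lower and all changes between -0.33 and 0.25. The geranylgeranyl transferase subunits went apart, with RABGGTB up by 0.25 and RABGGTA down at -0.26. The CAAX protease RCE1 fell by 0.33, with 1 of its 2 probe sets lower, and ZMPSTE24 rose by 0.23.

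Of 50 RAB effector genes tested, 17 rose and 15 fell, or 34% and 30%, near the 32.4% and 34.1% of all genes, with a median change of -0.0013. MICALL1, an effector of RAB8 and RAB35 on recycling tubules, averaged 7.68 ± 0.05 in knockdown and 9.46 ± 0.16 in control, a change of -1.78 on its 1 probe set (SD, n = 3 each). SYTL1, an effector of RAB27, fell by 0.997. MYO5A, a myosin motor recruited by RAB27A, averaged 8.15 ± 0.02 in knockdown and 6.68 ± 0.06 in control, a change of 1.47 on 2 of 2 probe sets. RAB11FIP3, an effector of RAB11, rose by 0.97, with 2 of its 5 probe sets higher.

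**Figure D5:**
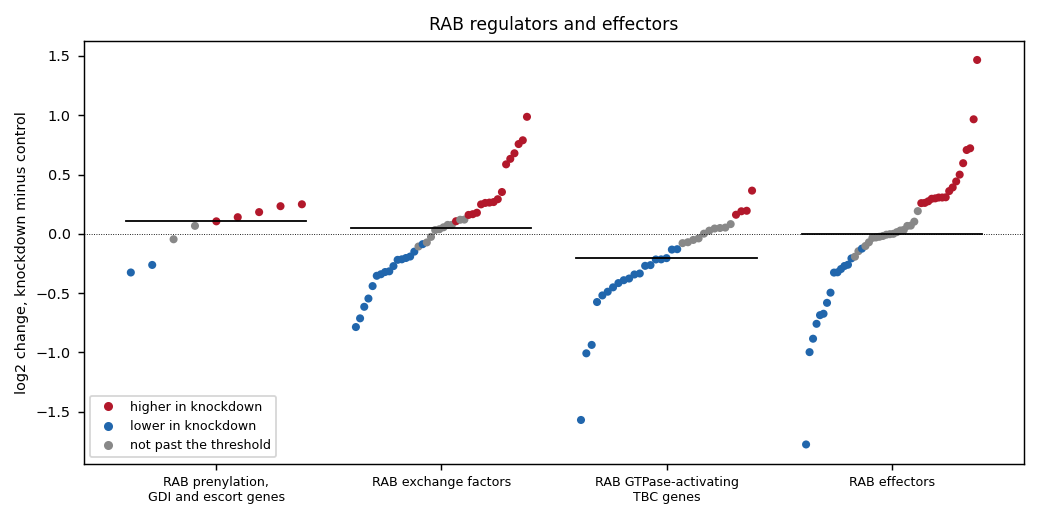
log2 change, knockdown minus control, of each tested gene (points, sorted within a list) in 4 lists of RAB regulators and effectors, with the list median (line). Points of the TBC list lie mostly below 0, with a median of -0.20, and the other lists reach to both sides.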

How the data were processed

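Gene expression was measured on 6 Affymetrix arrays, 3 per group. The values are the log2 signals deposited by the authors, and MAS5 is named per the submitters' processing notes, with no version. The scale was read from the range of the values, and how background and probes were handled is not given in the sources used here. Array medians were nearly equal, so no further normalization was applied.

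Probe sets were named by the platform annotation, only those with 1 symbol were used, and for each gene the brightest probe set by mean over the 6 arrays was taken. The lowest 25% of 18132 genes by mean were left out. The remaining 13599 were tested with limma 3.58.1 in R 4.3.3 (lmFit, eBayes with intensity trend, group as the only term, Benjamini-Hochberg over all genes, threshold 0.05). Single probe sets were called in a fit of their own over the 49293 human probe sets. The test was checked on simulated data with independent noise and far fewer changed genes than passed here. That check does not cover arrays that share a clone. RAB genes were grouped by trafficking role. Array values are given for genes past the threshold with at least 1.5-fold change, for the RAB5 and RAB11 trios and for the RAB7 and RAB27 pairs. In each regulator or effector list, the 4 largest changes past the threshold are named, and RABGAP1L was added after its value was seen. The members and lists were chosen with earlier results of these data known. The bulk RNA does not tell a lower level in every cell from loss in some cells. The number of arrays limits the precision. Promoter windows are from RefSeq.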

Additional observations from a re-analysis of the deposited data

How the results depend on the processing

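Alternatives were other filters, normalization by quantiles or medians, averaged probe sets, probe sets taken singly, robust eBayes or eBayes with no trend, array weights, the replicate block, and leaving out each array. A further one, without probe sets marked s or x for possibly shared probes, was chosen after seeing the data. Under these, RAB genes higher numbered 17 to 19 and lower 15 to 21, probe sets taken singly apart. Counted per probe set, 45 were higher, 53 lower and 29 changed at least 1.5-fold; for prenylation and escort genes 12 and 7 were higher and lower, for exchange factors 33 and 31, for effectors 49 and 32, and for TBC genes 41 were lower. The median RAB change was -0.047 with quantile normalization and ran from -0.045 to -0.00374 with an array left out, and was 0.0084 with the 50% filter and 0.019 without probe sets marked s or x. With the 50% filter, 9 exchange factors fell and 2 TBC genes rose. Of prenylation and escort genes, 4 fell with averaged probe sets and 1 without probe sets marked s or x. RAB2A (-0.30) and RAB18 (0.16), which then passed, turned sign with the mean of probe sets and RAB33B (0.19) without probe sets marked s or x, as their probe sets differ. Under the mean, calls of RAB3A, RAB27A and RAB33B were lost and 9 RAB genes reached 1.5-fold. RAB31 lost its call without probe sets marked s or x. Calls were gained by RAB18 (-0.069) and RAB2B (-0.12) with quantile normalization, by RAB6B (-0.25) with the mean of probe sets and by RAB3D (0.26) without knockdown replicate 2.

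The same replicate numbers correlated at 0.0765, 0.129 and 0.227 in their deviations from the group means. Control replicate 1 correlated better with knockdown replicate 2, at 0.105, and the other pairs of unlike number lay between -0.179 and -0.0145. These values do not settle if arrays of the same number belong together, and the labels do not say so. With the replicate block, 19 RAB genes were higher and 19 lower, and 48 of 48 single-gene calls were as without it. Dim probe sets, such as those of RAB7B and RAB9B, limit how well the size of a fold is known.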
